A study of Arabidopsis with 12 samples.

Results

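The response difference of a gene was taken as the log2 fold change with flg22 in *wlim2a-1* minus that in WT, both computed from FPKM + 1 (FPKM, a fragment count scaled by transcript length and by library size). It is positive where the response was stronger, or less negative, in *wlim2a-1*, and negative where it was weaker or more negative, and genes past either limit are called stronger or weaker below in that sense. The genes described are the 13760 of 27371 that had at least 5 FPKM in at least 1 condition and were above 0 in all 4 conditions. Of these, 13682 are nuclear, 62 are encoded in the chloroplast and 16 in the mitochondria. RNA came from whole 14-day-old seedlings in 4 conditions with 3 biological replicates each, 12 samples in all. They were *wlim2a-1* with 1 µM flg22 for 1 h, *wlim2a-1* with water (mock) for the same time, WT (Col-0) with flg22 and WT with mock. All seedlings had been moved to liquid medium the evening before treatment. *wlim2a-1* is 1 CRISPR-Cas9 allele with a small insertion that shifts the reading frame of *WLIM2A*, in a line from which Cas9 was removed by segregation. The labels give a guaranteed depth of 30000000 reads per sample. The authors deposited 1 value per gene and condition with the replicates already combined. No value below therefore has a standard deviation or a test, a single deviating replicate cannot be told apart from a change shared by all 3, and "higher" and "lower" describe these combined values only.

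Plants detect flg22, a peptide of bacterial flagellin, with the receptor kinase FLS2 and the co-receptor BAK1. Within minutes this leads to calcium influx, a burst of reactive oxygen species and activation of mitogen-activated protein kinases, and within the hour to the transcription of many defense genes, among them *WRKY* and *ERF* transcription factors. Salicylic acid (SA) and jasmonic acid (JA) signaling act later and partly against each other. WLIM2A belongs to the plant LIM proteins, which bind and bundle actin filaments.

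*WLIM2A* (AT2G39900) had 6.20 FPKM in *wlim2a-1* flg22, 10.9 in *wlim2a-1* mock, 11.6 in WT flg22 and 12.6 in WT mock. An insertion of this kind leaves the transcript countable, so these levels do not check the genotype of the samples. The short locus AT2G01021 held 67.4% of the summed FPKM in *wlim2a-1* flg22, 56.5% in *wlim2a-1* mock, 28.9% in WT flg22 and 67.4% in WT mock. Chloroplast genes held 1.54%, 4.88%, 1.27% and 1.92% of the remainder in the same order. The part of either in the differences below was not tested. The upper quartile of the genes compared lay between 29.1 and 31.4 FPKM in every condition.

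Many more genes responded less, or were more strongly lower, in *wlim2a-1* than responded more. The response difference was at or below -1, the limit for a weaker response, for 571 genes (4.15% of those compared), and at or above 1 for 144 genes (1.05%). Over all genes its median was -0.06 and its standard deviation over genes 0.55. After flg22, levels in *wlim2a-1* were at least 2-fold above mock for 896 genes (6.51%) and at least 2-fold below it for 692 (5.03%). In WT, 780 genes (5.67%) were at least 2-fold higher and 47 (0.342%) at least 2-fold lower. The responses of the genotypes had a Pearson r of 0.713 and a Spearman rho of 0.555 across the 13760 genes, which are not independent replicates. Since whole seedlings were used, fewer cells of a type and less RNA per cell cannot be told apart in any of these differences.

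**Figure D1:**
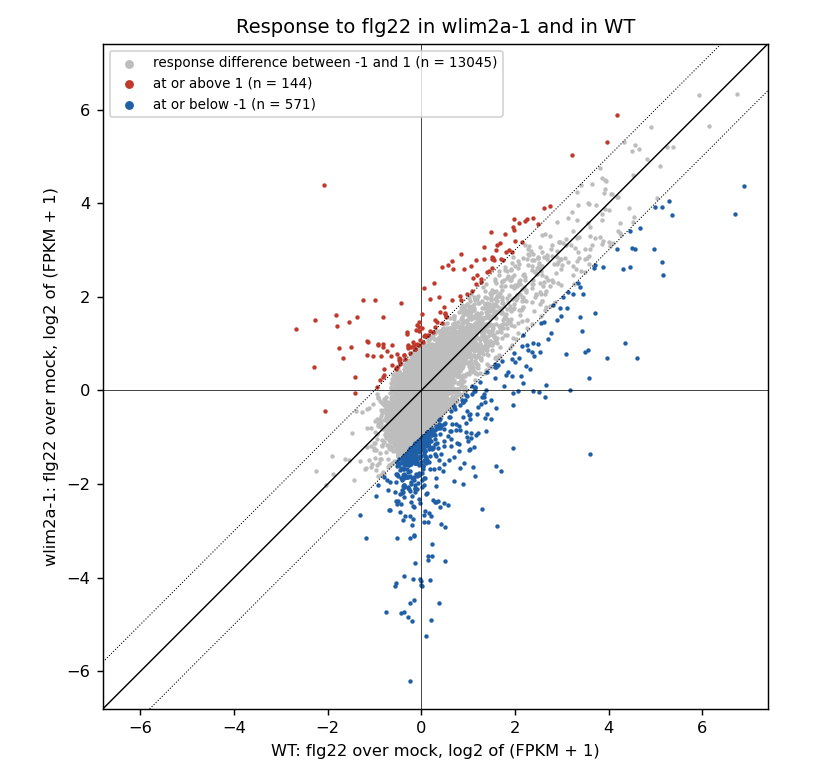
Response to flg22 in *wlim2a-1* (y axis) against WT (x axis), each as the log2 ratio of FPKM + 1 in flg22 over mock, with 1 point per gene. The solid line marks equal responses and the dotted lines a response difference of 1 or -1. The 571 blue points hang below the line mainly near a WT response of 0, and the 144 red points lie above it.

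Most genes with a weaker response changed less than 2-fold in WT. Of the 571, 376 were at least 2-fold lower after flg22 in *wlim2a-1* and changed less than 2-fold in WT, and 44 of these are chloroplast genes. Another 67 were at least 2-fold higher in WT and changed less than 2-fold in *wlim2a-1*, 40 were higher in both genotypes but less so in *wlim2a-1*, and 74 stayed under 2-fold in both. A further 12 were higher in WT but lower in *wlim2a-1* after flg22, and 2 were lower in both. Of the 144 genes with a stronger response, 42 were at least 2-fold higher in both genotypes, 45 were higher in *wlim2a-1* only, 38 stayed under 2-fold in both, 10 were higher in *wlim2a-1* and lower in WT, and 9 were lower in WT only. Among the 780 genes that were higher in WT, the response was within 2-fold of that in WT for 619, weaker in *wlim2a-1* for 119 (15.3%) and stronger for 42 (5.38%). Among the 896 that were higher in *wlim2a-1*, it was weaker for 40 (4.46%) and stronger for 97 (10.8%). Among the 600 higher in both, it was weaker for 40 (6.67%) and stronger for 42 (7%). The WT response is subtracted in the response difference, so choosing genes by it favors weaker responses. Choosing by the response in *wlim2a-1* favors stronger ones.

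Genes just on either side of the limits are not sharply separated. *WRKY41* (1.005) and AT2G45220, which encodes the pectin methylesterase PME17 (1.0019), lay just above 1, and *HY5* (0.9947), a light signaling transcription factor, and AT3G49930 (0.9941) just below it. *I-2* (-1.0012) and *GRF10* (-1.0019), a 14-3-3 protein, lay just past -1. *OPR1* (-0.9996), an oxophytodienoate reductase homolog, and AT5G66540 (-0.9984) fell just short of it.

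The response difference of a gene equals its genotype difference (*wlim2a-1* over WT, log2 of FPKM + 1) after flg22 minus its genotype difference in mock. It can thus be divided into a part from each side, though not every gene falls on a single side. The genotypes differed more in mock than after flg22. After flg22, levels in *wlim2a-1* were at least 2-fold above WT for 141 genes (1.02%) and at least 2-fold below it for 23 (0.167%). In mock they were above it for 711 genes (5.17%) and below it for 58 (0.422%). The standard deviation over genes was 0.29 after flg22 and 0.57 in mock. For the weaker responses the mock side carried almost all of the difference. Of the 571 genes, 459 (80.4%) differed at least 2-fold between the genotypes in mock but not after flg22, 7 only after flg22, 23 in both and 82 in neither. The mock difference was the larger of the pair in 556 (97.4%) of them, beside 71.4% of all genes compared. The stronger responses were divided differently, with 51 of the 144 genes (35.4%) on the flg22 side, 24 on the mock side, 11 on both and 58 on neither. Here the mock difference was the larger in 58 genes (40.3%).

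**Figure D2:**
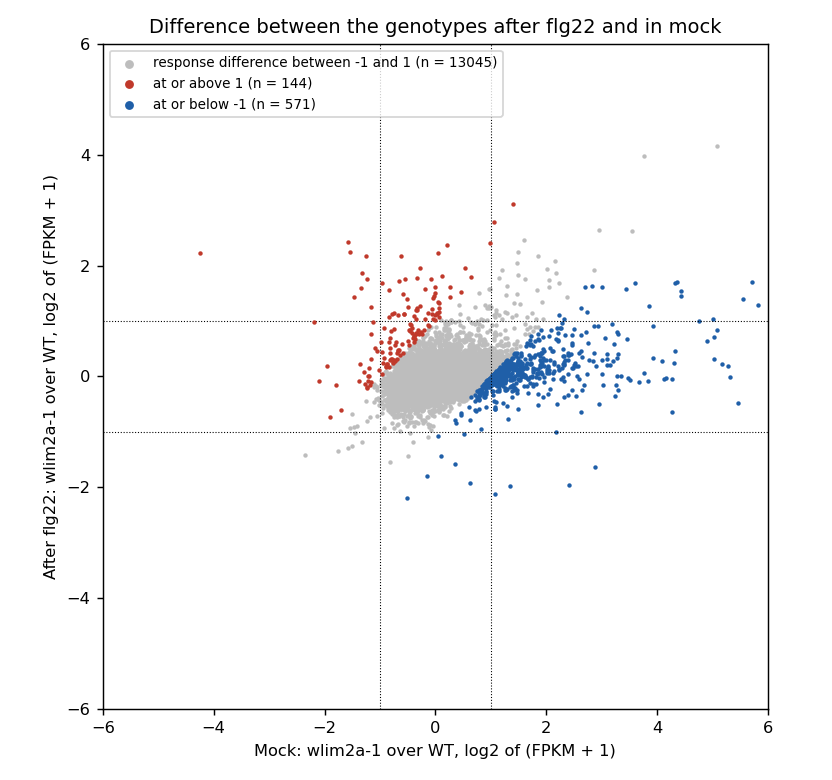
Genotype difference (*wlim2a-1* over WT, log2 of FPKM + 1) after flg22 (y axis) against mock (x axis), with 1 point per gene and dotted lines at 1 and -1. The 571 blue genes with a weaker response in *wlim2a-1* spread to the right, along the mock axis, and the 144 red genes with a stronger response spread mainly upward and to the upper left.

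*wlim2a-1* mock was also the condition that stood farthest from the median of the other 3 in most of the weaker genes. It lay above them in 435 (76.2%) of the 571. In 121 (21.2%) WT mock lay below the others, in 8 WT flg22 lay above and in 7 *wlim2a-1* flg22 lay below. Over all genes *wlim2a-1* mock was the farthest in 50.2% with both directions counted, above the others in 4175 genes and below them in 2739. For genes past a limit, the direction is fixed by the sign of the response difference. For the stronger responses *wlim2a-1* flg22 lay above the others in 72 genes (50%), *wlim2a-1* mock lay below in 46 (31.9%), WT flg22 below in 14 and WT mock above in 12.

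The 376 genes that were lower after flg22 in *wlim2a-1* alone had a median of 8.56 FPKM in *wlim2a-1* flg22, 29.1 in *wlim2a-1* mock, 7.78 in WT flg22 and 8.48 in WT mock. Mock seedlings of *wlim2a-1* thus stood apart, and after flg22 the level was near that of both WT conditions. In 318 of these genes the mock level in *wlim2a-1* was at least 2-fold above WT, and in 358 the genotypes differed less than 2-fold after flg22.

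Genes that protect cells in cold and drought were among them. *ERD10*, which encodes a dehydrin, had 113 FPKM in *wlim2a-1* flg22, 2664 in *wlim2a-1* mock, 177 in WT flg22 and 137 in WT mock. The 3 other conditions lay close together and *wlim2a-1* mock far above them, which gave a response difference of -4.91. The dehydration gene *ERD7* had 33.6 FPKM in *wlim2a-1* flg22, 402 in *wlim2a-1* mock, 36.1 in WT flg22 and 30.6 in WT mock (-3.77). *COR78*, also known as *RD29A* and induced by cold, drought and abscisic acid, had 33.6, 597, 35.0 and 51.5 FPKM in the same order (-3.57). For the dehydrin *COR47* the values were 531, 2451, 691 and 633 FPKM (-2.33). In all of these genes only *wlim2a-1* mock departed from the rest. Of the 17 cold and dehydration effectors compared, 7 were at or below -1 (41.2%, beside 4.15% of all genes) and none was at or above 1. Their median response difference was -0.87 beside -0.06 over all genes, with a median genotype difference of 0.06 after flg22 and 1.14 in mock. *RAB18*, a dehydrin induced by abscisic acid, differed from this pattern in being higher in *wlim2a-1* in both states, with 38.8 FPKM in *wlim2a-1* flg22, 118 in *wlim2a-1* mock, 5.46 in WT flg22 and 9.14 in WT mock (-0.93). Of the 16 cold and abscisic acid regulators listed, 7 were compared. None of them, among them the transcription factors *ICE1*, *ABF2*, *ABF3* and *DREB2A*, was past 1 or -1, and their median was -0.22. *ABF2* was also highest in *wlim2a-1* mock, with 6.64 FPKM in *wlim2a-1* flg22, 13.5 in *wlim2a-1* mock, 7.78 in WT flg22 and 9.06 in WT mock (-0.73). *CBF1*, *CBF2* and *DREB1A* reached at most 0.689 FPKM in any condition and were below the level required.

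Several SA-associated defense genes were low in both WT conditions and high in *wlim2a-1* mock. *PR2*, a glucanase that is a standard SA marker, had 1.65 FPKM in *wlim2a-1* flg22, 42.9 in *wlim2a-1* mock, 0.479 in WT flg22 and 0.301 in WT mock, a response difference of -4.24. *PR5*, a thaumatin-like protein, had 5.09, 39.9, 1.52 and 1.83 FPKM in the same order (-2.58). *LURP1*, needed for full defense against the oomycete *Hyaloperonospora*, had 3.07, 49.7, 0.539 and 0.0794 FPKM (-4.15). These genes were thus lower after flg22 in *wlim2a-1*, yet remained above WT. *PCC1*, a pathogen- and clock-controlled gene, had 2.67 FPKM in *wlim2a-1* flg22, 59.1 in *wlim2a-1* mock, 0.120 in WT flg22 and 0.138 in WT mock (-4.01). *RLP23*, the receptor-like protein for a peptide of microbial NLP toxins, had 1.38, 28.2, 0.189 and 0.0785 FPKM (-3.76). *PR1* was less far below mock after flg22 in *wlim2a-1*, with 18.2 FPKM in *wlim2a-1* flg22, 41.8 in *wlim2a-1* mock, 0.0857 in WT flg22 and 0.257 in WT mock. It was far higher in *wlim2a-1* in both states. Its response difference of -0.94 depended on the processing and was -0.25 with a pseudocount of 0.1 and -1.44 with scaling to *ACT2* and *UBQ10*. Of 6 SA output genes compared, *PR2* and *PR5* were at or below -1 (33.3%, beside 4.15% of all genes). The list median was -0.90 (-1.23 with scaling to *ACT2* and *UBQ10*). *PR2* and *DMR6* of this list reached 5 FPKM in *wlim2a-1* mock only, as did *LURP1*, *PCC1* and *RLP23*. The minimum thus admitted them through the condition in which they were high, which favors a negative value. The 10 SA synthesis and regulator genes, such as *EDS1*, *PAD4*, *NPR1* and *CBP60G*, included none past 1 or -1, and their median was -0.26. Of these, *WRKY54* (-0.93) was past -1 with a pseudocount of 0.1 (-1.22) and with scaling to *ACT2* and *UBQ10* (-1.11). *ICS1* and *SARD1* reached at most 1.38 and 4.15 FPKM and were below the level required.

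Genes of JA synthesis and response were lower after flg22 than in mock in *wlim2a-1* in some cases and induced in others. *LOX2*, a chloroplast lipoxygenase of JA synthesis, had 12.9 FPKM in *wlim2a-1* flg22, 371 in *wlim2a-1* mock, 5.79 in WT flg22 and 10.4 in WT mock. It was by far highest in *wlim2a-1* mock (-3.99), but unlike *ERD10* it stayed above WT after flg22, with a genotype difference of 1.04. The JA-induced aminotransferase *TAT3* had 1.02, 12.8, 0.244 and 0.642 FPKM in the same order (-2.37), and the cystine lyase *CORI3* had 3.33, 24.3, 0.459 and 1.33 FPKM (-1.87). After flg22 *TAT3* and *CORI3* also stayed above WT, with genotype differences of 0.70 and 1.57. Another lipoxygenase, *LOX4*, was instead induced by flg22 in both genotypes, with 59.6 FPKM in *wlim2a-1* flg22, 7.99 in *wlim2a-1* mock, 52.5 in WT flg22 and 0.514 in WT mock (-2.39). For *LOX4* the flg22 levels were alike and WT mock was the low condition. *OPCL1*, a ligase that activates a JA precursor, had 27.7, 35.9, 17.4 and 6.89 FPKM (-1.58). *CYP94C1*, which oxidizes the active hormone, had 9.39, 18.4, 6.70 and 2.69 FPKM (-1.96). In total 5 of 15 JA synthesis and turnover genes were at or below -1 (33.3%, beside 4.15% of all genes), with a list median of -0.79. Among the 14 JAZ repressors, MYC factors and JA outputs it was also 5 (35.7%), with a list median of -0.15. *JAZ6*, *JAZ5* and *JAZ1* (-1.28, -1.15 and -1.01) were among these 5, *JAZ5* with -0.31 at a pseudocount of 5. *JAZ1* lay close to the limit and was not examined under other settings. *TAT3* and *CORI3*, also among the 5, reached 5 FPKM in *wlim2a-1* mock only, so the minimum favored a negative value. *MYC2* (-0.07), *VSP1* (-0.08) and *VSP2* (0.30) lay near 0.

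Genes of aliphatic glucosinolate synthesis and of protein folding were also lower after flg22 in *wlim2a-1* in some cases. *CYP79F1* and *CYP83A1*, oxidases that act in turn on chain-elongated methionine, had response differences of -1.34 and -1.10. *CYP83A1* had 41.3 FPKM in *wlim2a-1* flg22, 125 in *wlim2a-1* mock, 39.2 in WT flg22 and 54.5 in WT mock. *IPMI2*, a chain elongation enzyme, lay at -1.07 (-0.97 with upper quartile scaling), and 3 of the 17 genes of the list (17.6%, beside 4.15% of all genes) were at or below -1. The list median was -0.33. Of the 8 heat shock genes and chaperones, *BIP3* (-1.78), *HSP18.2* (-1.23), *HSP70* (-1.16) and *HSP90.1* (-1.12) were at or below -1 (50%, list median -0.74, beside 4.15% of all genes), at levels of 15.3 FPKM or less. With a pseudocount of 5 all of them were above -1. *BIP3*, *HSP70* and *HSP90.1* reached 5 FPKM in *wlim2a-1* mock only, so the minimum favored a negative value.

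The list of actin cytoskeleton and LIM genes had 23 members compared, and 2 of them (8.70%, beside 4.15% of all genes) were at or below -1. The profilin *PRF3* had 13.4 FPKM in *wlim2a-1* flg22, 51.6 in *wlim2a-1* mock, 11.9 in WT flg22 and 15.7 in WT mock (-1.49). The formin *FH1*, which nucleates actin filaments, had 14.4, 58.6, 15.9 and 25.6 FPKM in the same order (-1.29). Both were high in *wlim2a-1* mock only. The fimbrin *FIM1* lay at -0.86 (-1.01 with scaling to *ACT2* and *UBQ10*) and *WLIM2A* itself at -0.62, and the related LIM genes *WLIM1* and *WLIM2B* lay at 0.29 and 0.19. The list median was -0.18.

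Genes that flg22 induced in WT and less in *wlim2a-1* reached a similar level in both genotypes after flg22, and differed in mock. The 40 genes higher in both genotypes with a response difference at or below -1 had medians of 105 FPKM in *wlim2a-1* flg22, 13.6 in *wlim2a-1* mock, 84.4 in WT flg22 and 3.61 in WT mock. None of the 40 differed 2-fold between the genotypes after flg22, and in mock 38 were at least 2-fold above WT. The 67 genes that were higher in WT alone had medians of 22.8, 19.9, 22.2 and 4.28 FPKM in the same order. Their level in *wlim2a-1* mock was thus close to that of both flg22 conditions, and in 63 of them it was at least 2-fold above WT mock.

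Receptor components were among the genes with this pattern. *BKK1*, a relative of the co-receptor BAK1, had 26.2 FPKM in *wlim2a-1* flg22, 23.5 in *wlim2a-1* mock, 22.9 in WT flg22 and 4.28 in WT mock (-2.03). Only WT mock was low. *SOBIR1*, the partner kinase of receptor-like proteins, had 80.8, 81.9, 53.4 and 24.1 FPKM in the same order (-1.14). The chitin receptor *LYK5* was past -1 without this pattern. It was high in *wlim2a-1* mock and was not 2-fold changed by flg22 in either genotype, with 6.09 FPKM in *wlim2a-1* flg22, 11.9 in *wlim2a-1* mock, 5.37 in WT flg22 and 3.16 in WT mock (-1.47, but -0.95 with a pseudocount of 5). *FLS2*, the flg22 receptor, had 21.3 FPKM in *wlim2a-1* flg22, 31.3 in *wlim2a-1* mock, 13.9 in WT flg22 and 10.9 in WT mock. Its response difference was -0.87, and -1.02 with scaling to *ACT2* and *UBQ10*. *BAK1* lay at 0.20. Of the 11 receptors and co-receptors, 3 were at or below -1 (27.3%, beside 4.15% of all genes). The list median was -0.50, with genotype differences of 0.22 after flg22 and 0.78 in mock. Downstream, 1 of 18 immune kinases and signaling enzymes (5.56%, near the 4.15% of all genes) was past -1. This was *CPK28*, a calcium-dependent kinase that limits the level of BIK1, with 31.5 FPKM in *wlim2a-1* flg22, 21.5 in *wlim2a-1* mock, 27.8 in WT flg22 and 5.14 in WT mock (-1.70). *MPK3*, *MPK4* and *MPK6*, the mitogen-activated protein kinases of this pathway, lay at -0.42, 0.28 and 0.24. The list median was -0.07.

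Among 19 early flg22 transcription factors, 4 were at or below -1 (21.1%, beside 4.15% of all genes). *WRKY18* had 22.8 FPKM in *wlim2a-1* flg22, 28.4 in *wlim2a-1* mock, 24.0 in WT flg22 and 9.34 in WT mock (-1.58). *WRKY70*, which acts between SA and JA signaling, had 12, 17.4, 12.5 and 5.53 FPKM in the same order (-1.55). Neither was higher after flg22 than in mock in *wlim2a-1*. *WRKY33*, a regulator of camalexin synthesis, was induced in both genotypes, with 159 FPKM in *wlim2a-1* flg22, 24.9 in *wlim2a-1* mock, 171 in WT flg22 and 10.7 in WT mock (-1.24). *ERF105* had 44.8, 9.99, 77.8 and 6.16 FPKM (-1.40), and here the lower flg22 level in *wlim2a-1* and the higher mock level both contributed without either reaching 2-fold. The list as a whole had a median of -0.08, close to that of all genes.

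Other genes with a weaker rise, named after their values were seen, were the mitochondrial dicarboxylate carrier *DIC2* (-2.70), the calmodulin-like *TCH3* (-2.17) and the flotillin *FLOT1* (-1.72). *DIC2* had 173 FPKM in *wlim2a-1* flg22, 30.5 in *wlim2a-1* mock, 225 in WT flg22 and 5.29 in WT mock. *TCH3* had 1066, 441, 1096 and 99.8 FPKM in the same order. From the lists, the ABC transporter *PEN3* (-1.0, but between -0.98 and -0.57 under 4 other settings), the calmodulin-like *CML38* (-1.38), the ethylene response factor *ERF2* (-1.34) and the glutathione transferase *GSTF6* (-1.16) belonged to the same class. The lipid transfer proteins *AZI1* (-1.43) and *EARLI1* (-1.09, but -0.94 with a pseudocount of 5 and -0.99 with upper quartile scaling), which act in systemic immunity, were both past -1, and their level in *wlim2a-1* was not 2-fold changed by flg22. The lowest nuclear response difference, -4.95, was that of AT5G54720, with 60.8 FPKM in *wlim2a-1* flg22, 156 in *wlim2a-1* mock, 52.0 in WT flg22 and 3.37 in WT mock. Its neighbor AT5G54710 had 103, 63.8, 110 and 3.54 FPKM (-3.92). In both, WT mock was the low condition.

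AT5G54720 was 1 of 12 genes with at least 2-fold responses in opposite directions, lower after flg22 in *wlim2a-1* and higher in WT. The same group held *WAK1*, a wall-associated kinase, with 13.5 FPKM in *wlim2a-1* flg22, 50.5 in *wlim2a-1* mock, 4.29 in WT flg22 and 1.39 in WT mock (-2.98). The immune receptor *ZAR1* had 96.6, 197, 78.4 and 36.7 FPKM in the same order (-2.10), and *WRR4*, a receptor for white rust, had 9.57, 23.5, 9.21 and 3.65 FPKM (-2.35). The pectin methylesterase *ATPMEPCRB* had 8.43, 53.4, 6.78 and 2.16 FPKM (-3.83). In each of these genes *wlim2a-1* mock held the highest level and WT mock the lowest. *WAK1*, *ZAR1* and *WRR4* were named after their values were seen.

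**Figure D3:**
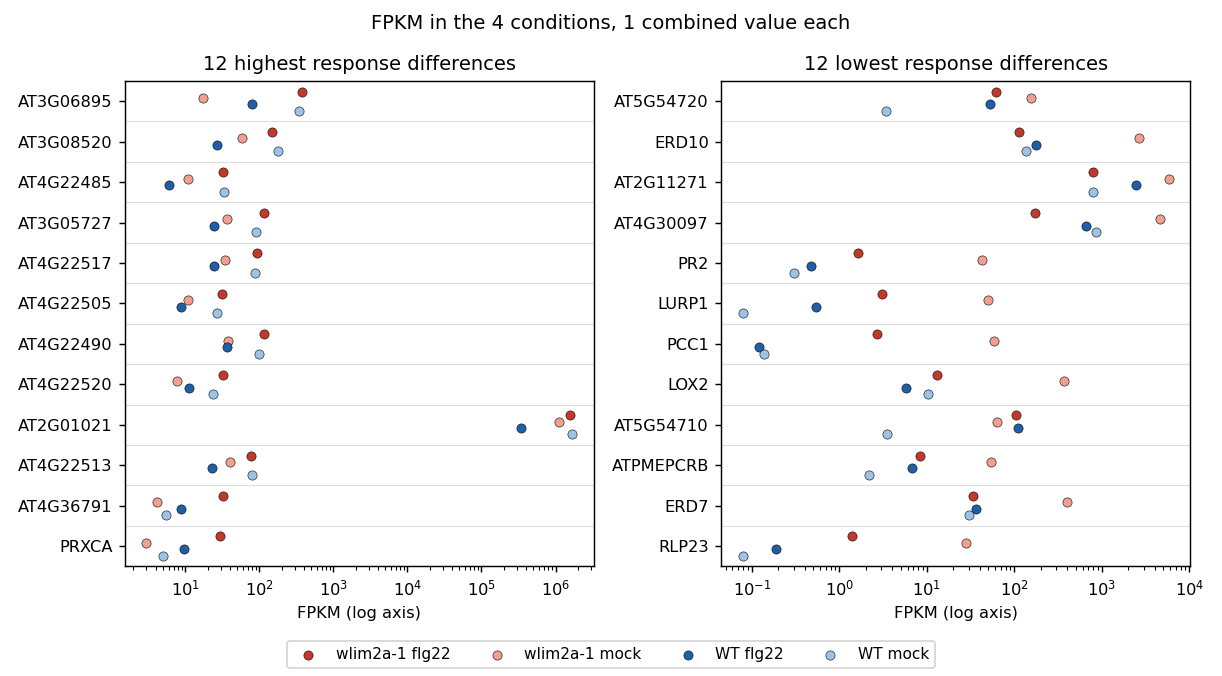
FPKM on a log axis in *wlim2a-1* flg22, *wlim2a-1* mock, WT flg22 and WT mock for the 12 nuclear genes with the highest (left) and the 12 with the lowest (right) response difference among genes reaching 20 FPKM. Each point is 1 combined value. On the right, *wlim2a-1* mock is the highest point for 11 of the 12 genes, AT5G54710 being the exception, and on the left *wlim2a-1* flg22 and WT mock lie high together for most genes.

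Among genes induced in both genotypes, the stronger responses lay mainly on the flg22 side when measured as log2 of FPKM + 1. The 42 such genes had medians of 18.9 FPKM in *wlim2a-1* flg22, 1.10 in *wlim2a-1* mock, 10.8 in WT flg22 and 1.93 in WT mock. After flg22, 25 of them were at least 2-fold above WT, and in mock 2 were at least 2-fold below it. The median genotype difference was 1.12 after flg22 and -0.24 in mock. The mock levels were close to the pseudocount of 1, which understates differences there, so the part of the mock side may be larger. *PROPEP3*, the precursor of a danger peptide that amplifies immune signaling, had 333 FPKM in *wlim2a-1* flg22, 4.64 in *wlim2a-1* mock, 93.6 in WT flg22 and 4.18 in WT mock (1.70). The mock levels were alike, and after flg22 the genotype difference was 1.82. *PROPEP2*, of the same family, had 9.99, 0.307, 2.71 and 0.478 FPKM in the same order (1.74). The glutathione transferase *GSTU11* had 67.3, 1.08, 19.3 and 1.18 FPKM (1.82). *PRXCA*, or peroxidase 33, an apoplastic source of reactive oxygen species, was higher in *wlim2a-1* only, with 29.2 FPKM in *wlim2a-1* flg22, 2.99 in *wlim2a-1* mock, 9.76 in WT flg22 and 5.01 in WT mock (2.08). Named after their values were seen, the lignin synthesis gene *CCR2* (1.22), *MLO6* (1.01), a relative of the mildew susceptibility gene *MLO2*, and *MAPKKK15* (1.11) belonged to the class that was higher in both. Of the lists, other early flg22 genes held *PROPEP2* and *PROPEP3* among 11 (18.2%) and glutathione transferases and detoxification held *GSTU11* among 13 (7.69%, beside 1.05% of all genes). Each list also held genes past -1, 2 (18.2%) and 1 (7.69%), beside 4.15% of all genes, and the list medians were -0.42 and -0.13. Ferritin *FER1* (1.11, or 0.97 when scaled to *ACT2* and *UBQ10*), which stores iron, was the only one of 6 iron genes at or above 1, and their median was 0.53. It had 170 FPKM in *wlim2a-1* flg22, 144 in *wlim2a-1* mock, 144 in WT flg22 and 267 in WT mock, so that WT mock was the high condition. The iron transporter *IRT1* and the reductase *FRO2* were at least 2-fold below WT in mock and had response differences of 0.61 and 0.45.

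The largest positive differences belonged to a different set, mostly loci without a gene name and with opposite responses in the genotypes. AT3G06895, a locus of 163 bases, had 383 FPKM in *wlim2a-1* flg22, 17.3 in *wlim2a-1* mock, 80.7 in WT flg22 and 345 in WT mock, a response difference of 6.47. AT3G08520 had 148, 59.1, 27.0 and 178 FPKM in the same order (3.99), and AT3G05727 had 115, 36.8, 24.7 and 89.8 FPKM (3.44). In all of them *wlim2a-1* flg22 and WT mock were high, and *wlim2a-1* mock and WT flg22 were low. All 6 genes compared in the stretch AT4G22485 to AT4G22520 shared this order, with response differences between 2.66 and 3.79 and a median of 2.97. AT4G22490 had 115 FPKM in *wlim2a-1* flg22, 38.1 in *wlim2a-1* mock, 37.2 in WT flg22 and 98.2 in WT mock. These genes lie side by side, and reads shared between them were not tested for. AT2G01021, the locus that dominated the summed FPKM, was markedly low in WT flg22 only. It had 1550000 FPKM in *wlim2a-1* flg22, 1100000 in *wlim2a-1* mock, 342279 in WT flg22 and 1690000 in WT mock (2.80). Of the 10 genes at least 2-fold up in *wlim2a-1* with flg22 and at least 2-fold down in WT, 7 were nuclear, 2 chloroplast and 1 mitochondrial. AT2G11271 and AT4G30097, loci of 126 and 144 bases, lay at the other end with -4.50 and -4.38. AT4G30097 had 170 FPKM in *wlim2a-1* flg22, 4584 in *wlim2a-1* mock, 665 in WT flg22 and 854 in WT mock.

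Gene length moved with the response difference. Lengths from the RefSeq annotation were available for 13635 of the nuclear genes and had a median of 2278 bases. The median was 1094 bases for the genes at or above 1 and 2781 for those at or below -1. Genes under 500 bases made up 14.5% of the genes at or above 1 and 1.92% of those at or below -1, beside 0.711% of all. With the genes divided by length into 5 equal classes, from the shortest to the longest, the median genotype difference after flg22 was -0.11, -0.06, -0.03, -0.02 and 0.02, and in mock it was -0.20, -0.08, -0.01, 0.08 and 0.31. The median response difference was 0.08, 0.02, -0.04, -0.09 and -0.28. The trend was therefore larger in mock than after flg22, and its part in the counts above was not tested beyond the alternatives by length. Among genes of at least 500 bases, 118 were at or above 1 and 510 at or below -1. With the median of each of 20 length classes subtracted, the counts were 130 and 410.

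**Figure D4:**
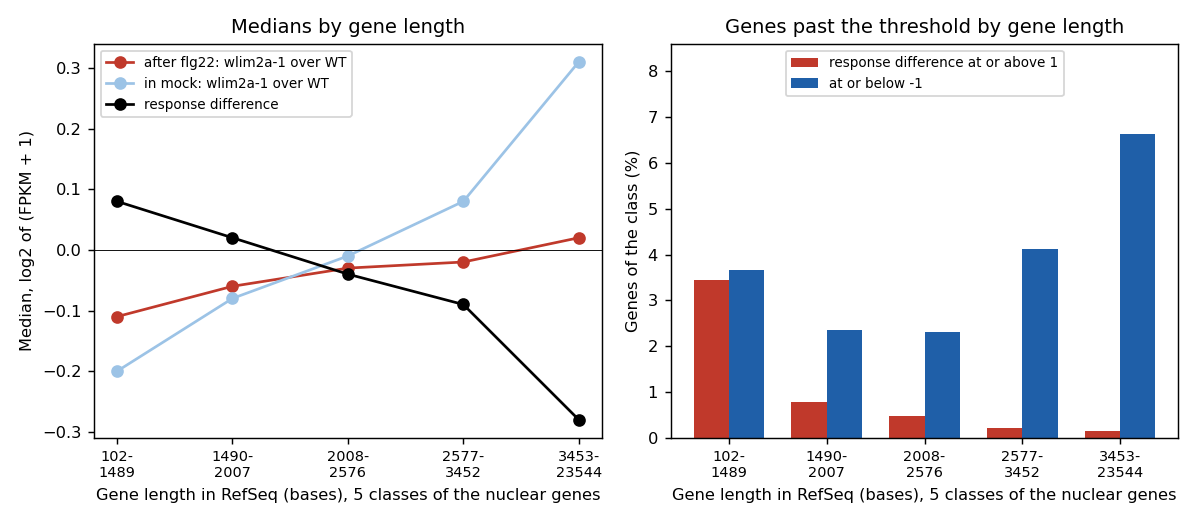
Left, median genotype difference after flg22, in mock and the resulting response difference (log2 of FPKM + 1) in 5 equal classes of the nuclear genes by RefSeq gene length. Right, percent of the genes of each class with a response difference at or above 1 or at or below -1. The share at or above 1 was 3.44% in the shortest class and 0.147% in the longest, and the share at or below -1 was highest, at 6.64%, in the longest.

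The genes whose transcripts the study itself names mostly differed by less than 2-fold in their response. *MYB51*, a regulator of indole glucosinolate synthesis, had 152 FPKM in *wlim2a-1* flg22, 10.2 in *wlim2a-1* mock, 136 in WT flg22 and 8.52 in WT mock (-0.08). *ERF6* had 196, 27.4, 195 and 29.4 FPKM in the same order (0.11). *WRKY40* had 56.3, 5.33, 52.5 and 2.32 FPKM (-0.83), with the difference in mock, and its value was -1.06 with a pseudocount of 0.1 and -0.40 with a pseudocount of 5. *WRKY29* had 40.5 FPKM in *wlim2a-1* flg22, 6.05 in *wlim2a-1* mock, 31.7 in WT flg22 and 9.33 in WT mock (0.90). Its mock level was lower and its flg22 level higher in *wlim2a-1*, neither by 2-fold. *WRKY27* (0.47), the receptor-associated kinase *BIK1* (0.39), the kinase *AGC2-1* (0.10), the SA regulator *CBP60G* (0.09), the SA receptor *NPR3* (-0.22), the myrosinase *PEN2* (AT2G44490, -0.42) and the auxin transporter *PIN7* (-0.58) were also within 2-fold. *ERD10* and *LOX2*, described above, were past it with the pseudocount of 1. *FRK1*, a flg22-induced receptor-like kinase, reached 3.13 FPKM and was below the level required.

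Few or no genes of several further lists were past 2-fold. Of all genes compared, 4.15% were at or below -1 and 1.05% at or above 1. Of 18 indole glucosinolate and camalexin genes, 11 were at least 2-fold higher after flg22 in *wlim2a-1* and 10 in WT, and none was past 1 or -1. Their median response difference was 0.13. The largest differences were those of *PAD3* (0.72), *GSTU4* (0.71), *IGMT1* (0.65) and *SOT16* (0.49). *PAD3*, the last enzyme of camalexin synthesis, had 26.8 FPKM in *wlim2a-1* flg22, 8.11 in *wlim2a-1* mock, 8.81 in WT flg22 and 4.30 in WT mock, and was thus higher in *wlim2a-1* in both states. The 15 ethylene genes had a median of 0.00, and 1 of them, *ERF2*, was past -1. None of the 7 evening genes of the circadian clock was past 1 or -1, and all lay between -0.23 and 0.27. The 2 morning genes compared, *PRR7* and *LNK2*, lay at 0.02 and -0.08. The 34 nuclear photosynthesis genes had a median of -0.28, with none past 1 or -1 (but *PSAG* at -1.04 and *PRK* at -1.02 with scaling to *ACT2* and *UBQ10*), and the 17 cell wall expansion and auxin genes a median of -0.08, with *IAA19* (-1.08, but -0.61 with a pseudocount of 5) past -1.

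**Figure D5:**
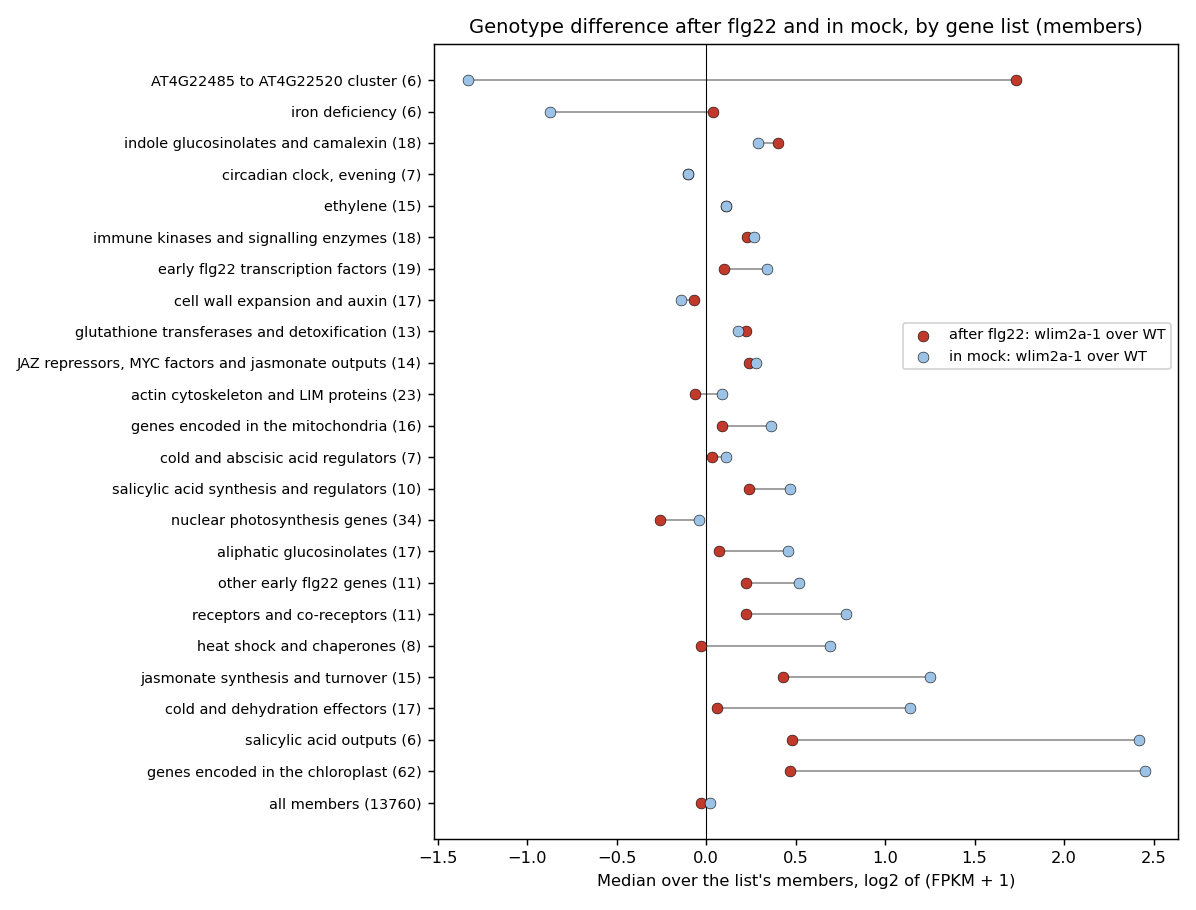
Median genotype difference (*wlim2a-1* over WT, log2 of FPKM + 1) after flg22 and in mock for each gene list with at least 6 genes compared, and for all 13760 genes. The points of a row are joined by a line. The mock point lies far to the right for chloroplast, SA output, cold and JA synthesis genes, while the points of the indole glucosinolate, ethylene and clock lists lie close together.

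Genes encoded in the chloroplast stood apart from the nuclear photosynthesis genes. Of the 62 compared, 47 (75.8%, beside 4.15% of all genes) were at or below -1 and 3 (4.84%, beside 1.05%) at or above 1, and the median was -1.79. After flg22, 16 of them were at least 2-fold above WT, and in mock 56 were. The lowest value of all genes, -5.96, was that of ATCG00820, with 4.25 FPKM in *wlim2a-1* flg22, 387 in *wlim2a-1* mock, 6.33 in WT flg22 and 7.73 in WT mock. ATCG00480 had 44.4, 1373, 35.5 and 41.1 FPKM in the same order (-4.72). Only *wlim2a-1* mock was high in these genes. Some other chloroplast genes, such as ATCG01110 and ATCG00160, reached 5 FPKM in *wlim2a-1* mock only, so the minimum favored a negative value. The 3 exceptions at or above 1 were ATCG00550 (3.17), ATCG00020 (2.23) and ATCG00070 (1.91). ATCG00020 had 232 FPKM in *wlim2a-1* flg22, 111 in *wlim2a-1* mock, 59.0 in WT flg22 and 134 in WT mock. Of the 16 mitochondrial genes, 3 (18.8%, beside 4.15% of all genes) were at or below -1 and 2 (12.5%, beside 1.05%) at or above 1. The share of chloroplast genes in the summed FPKM was highest in the same condition, and its part in these values was not tested. Without the organelle genes, 139 genes were at or above 1 and 521 at or below -1, with 417 of the 521 (80.0%) on the mock side.

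Genes past the threshold were next to one another more often than the genes compared as a whole were next to such a gene. Of the 138 nuclear genes at or above 1 with a RefSeq position, 11 (7.97%) had a neighbor in the same class, beside 1.96% of all genes. The stretch AT4G22485 to AT4G22520, with all 6 genes compared at or above 1, can supply part of these 11, and its share was not counted separately. For the 520 at or below -1 it was 87 (16.7%), beside 7.45%. Reads shared between neighbors were not tested for.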

How the data were processed

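RNA-Seq was performed on *Arabidopsis* seedlings, 12 samples in 4 conditions. The study's methods and the submitters' processing notes name FastQC 0.11.5, TopHat2 2.1.1, the TAIR 10 genome, Cufflinks, limma, and Cuffdiff 2.2.1 with quartile normalization. They do not state which program gave the FPKM values. The authors deposited 1 FPKM value per gene and condition for 27371 genes, with replicates combined, so depth per sample is unknown beyond the guaranteed 30000000 reads and count-based tests could not be used.

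Values were used as deposited. A total of 13520 genes were left out because they were under 5 FPKM in every condition and 91 because they were listed at 0 in a condition. A gene that reached 5 FPKM in *wlim2a-1* mock only passed through the condition in which it was high. This favors a negative response difference, and such genes were not counted separately. Fold changes are on the log2(FPKM + 1) scale, a pseudocount of 1, which understates changes of low genes. Responses were called at 2-fold. Each gene was assigned to the mock side, the flg22 side, both or neither by 2-fold genotype differences. The calculation was checked on simulated data. Symbols, lengths and neighbor order came from RefSeq (TAIR10.1), in which 13646 of the 13760 loci (99.2%) were found, and no positions are given because the files use TAIR 10.

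Named were the 12 highest and 12 lowest nuclear genes reaching 20 FPKM, genes the study names, up to 4 genes of each list and of each side with the largest difference, and the 2 genes nearest each limit. Others were chosen after their values were seen. Further list members are given for context. Members and the 23 lists of nuclear genes were chosen with earlier results of these data known, and 9 list entries whose name RefSeq does not pair with the locus were left out. Near-identical copies can share reads. Alternatives were pseudocounts of 0.1 and 5, minima of 1 and 20 FPKM, genes listed at 0 kept, 3 scalings, nuclear genes only, thresholds of 1.5-fold and 4-fold, and 2 length alternatives added after seeing the data. Python 3.11.15, pandas 2.3.3, numpy 2.4.6, scipy 1.17.1 and matplotlib 3.10.9 were used.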

Additional observations from a re-analysis of the deposited data

Results flagged for a closer look

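Responses of at least 2-fold in opposite directions were found for 10 genes that were higher after flg22 in *wlim2a-1* and lower in WT, and for 12 genes that were lower in *wlim2a-1* and higher in WT. With 1 combined value per condition, the difference between the genotypes was not tested for any of them. Among those reaching the level for naming, the response differences were 6.47 for AT3G06895, 3.99 for AT3G08520, 3.79 for AT4G22485, 3.44 for AT3G05727, 3.18 for AT4G22517, 3.00 for AT4G22505 and 2.95 for AT4G22490. On the other side they were -4.95 for AT5G54720, -4.50 for AT2G11271 and -3.83 for *ATPMEPCRB*.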

How the results depend on the processing

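No paired analysis was possible because each condition had 1 combined value, and for the same reason no replicate could be left out. The 144 genes at or above 1 and the 571 at or below -1 became 56 and 306 with a pseudocount of 5, 61 and 345 with a minimum of 20 FPKM, 697 and 1824 at 1.5-fold, and 23 and 114 at 4-fold. Scaling to *ACT2* and *UBQ10* gave 881 at or below -1 and moved the median response difference of all genes to -0.19, beside -0.06 as deposited and 0.03 with upper quartile scaling. All other alternatives for these counts stayed within 1.5 times, including both length alternatives, which were added after seeing the data. Lower calls made up between 70.9% and 89.5% of all calls under every alternative, beside 79.9% as deposited. No named gene or list past the limit changed direction under any alternative run. Of 84 named genes past 2-fold, 69 stayed past it under every alternative in which they had a value. Of the 136 named genes, 103 had a value with a minimum of 20 FPKM and 128 with nuclear genes only. Of 25 list medians (both organelle lists included), 23 kept their side of the limit under every alternative that held them. *PEN3* went below 2-fold under 4 settings, with -0.57 after subtraction of the length medians. The combined values give no replicate error, so genes near the limit cannot be separated from it.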
